A study of Mus musculus with 12 samples.

Results

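The response to the BRAF inhibitor PLX4720 that mouse liver cancer lines of both origins had in common was described over 12 libraries, 6 with PLX4720 and 6 with its solvent DMSO. The libraries came from 6 cell lines, with T1, T2 and T3 derived from primary liver tumours and M1, M2 and M3 derived from metastases in lymph nodes. A gene was called shared when it met 3 conditions. Its mean change over the 6 lines passed an adjusted p of 0.05, its normalised read count moved the same way in 6 of 6 lines, and the smaller of its fitted changes at both sites was at least 2/3 of the larger. Of 16555 genes tested, 1482 (8.95%) were shared, 612 (3.7%) higher and 870 (5.26%) lower with PLX4720. Of the 1482, 410 also passed an adjusted p of 0.05 in primary lines and in metastasis lines taken alone. A shared gene thus need not pass at each site. The measured changes chose the shared genes, so their levels and changes below are descriptions.

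The series concerns BRAF inhibition, Tgfb2 and metastasis in mice with liver cancer driven by mutant BRAF. All 12 libraries carry the same genotype in the labels, BRAF V600E with loss of p53, and the controls share these alleles. According to the design text, mutant BRAF was expressed in hepatocytes alone and combined with loss of Trp53 or of Cdkn2a. Cells were kept in high-glucose medium with serum and received 2 µM PLX4720 or DMSO for 48 h before total RNA was extracted. Each line gave 1 library per treatment, so a replicate is a line, 3 per site. Whether T3, M2 and M3 came from separate animals is not stated, and the deposited table names of these 3 lines share a number. The p-values therefore set the PLX4720 change against its spread between the lines of a site, for these 6 lines.

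Library totals ran from 31992512 to 39288748 counted fragments. The mitochondrial share was 3.67% in the PLX4720 library of T3, against 0.189% to 0.712% elsewhere. It was higher with PLX4720 than with DMSO in 6 of 6 lines, going from 0.525% to 0.712% in T1, 0.476% to 0.653% in T2 and 0.697% to 3.67% in T3. In M1, M2 and M3 it went from 0.189% to 0.505%, 0.409% to 0.597% and 0.373% to 0.455%. The part of this in the results was not tested. The labelled liver cell identity was checked against 10 hepatocyte markers. Their summed level was 813 to 1870 CPM (normalised read counts per 1e6 fragments) in primary lines and 1.19 to 36 CPM in metastasis lines, where Alb, Serpina1c, Tat and Ttr were at 0. Apob, at 627 to 1560 CPM, made up most of the sum in primary lines, followed by Hnf4a at 121 to 266 CPM. Other markers were low there as well, with Alb at 0.132 to 15.8 CPM and Cps1, Tat and Cyp2e1 at 0 to 0.267 CPM. The 6 epithelial markers summed to 4370 to 6700 CPM in primary lines and to at most 14.8 CPM in metastasis lines. The 8 fibroblast and stellate cell markers summed to 1.26 to 32.3 CPM in primary lines and to 136 to 2580 CPM in metastasis lines. The metastasis lines were thus low in hepatocyte and epithelial markers, and a shared change is one found on both of these backgrounds.

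BRAF is a kinase that passes signals from RAS to MEK and ERK, and the V600E form is active without an upstream signal. Active ERK raises transcription of growth and immediate early genes and of its own inhibitors, among them dual-specificity phosphatases and Sprouty proteins, so these transcripts are common readouts of the pathway. PLX4720 is a tool compound related to vemurafenib that binds mutant BRAF.

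Over all 6 lines 4496 genes passed (27.2% of those tested; edgeR), 2393 higher (14.5%) and 2103 lower (12.7%). Without T1 these were 1347 and 1070, and the genes lower numbered 1305 without M2 and 1389 without T3. Among all genes tested 4228 (25.5%) moved the same way in 6 of 6 lines, and 3243 (19.6%) did so and passed. Of these 3243 genes 1761 failed the size condition, 1334 with the larger change in metastasis lines and 427 with the larger change in primary lines. Shared genes made up 25.57% of the genes called higher and 41.37% of those called lower. Taken alone, the primary lines gave 1362 calls (8.23%) and the metastasis lines 3378 (20.4%), and the difference between sites passed for 487 genes (2.94%). That last count was 160, 122, 243, 798, 257 and 295 without T1, T2, T3, M1, M2 and M3. Across all genes the fitted change in primary lines correlated with that in metastasis lines at a Pearson r of 0.41 and a Spearman rho of 0.47, a description over genes that share the same libraries. Between single lines, changes correlated at 0.502 to 0.740 within a site and at 0.261 to 0.453 between sites.

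**Figure D1:**
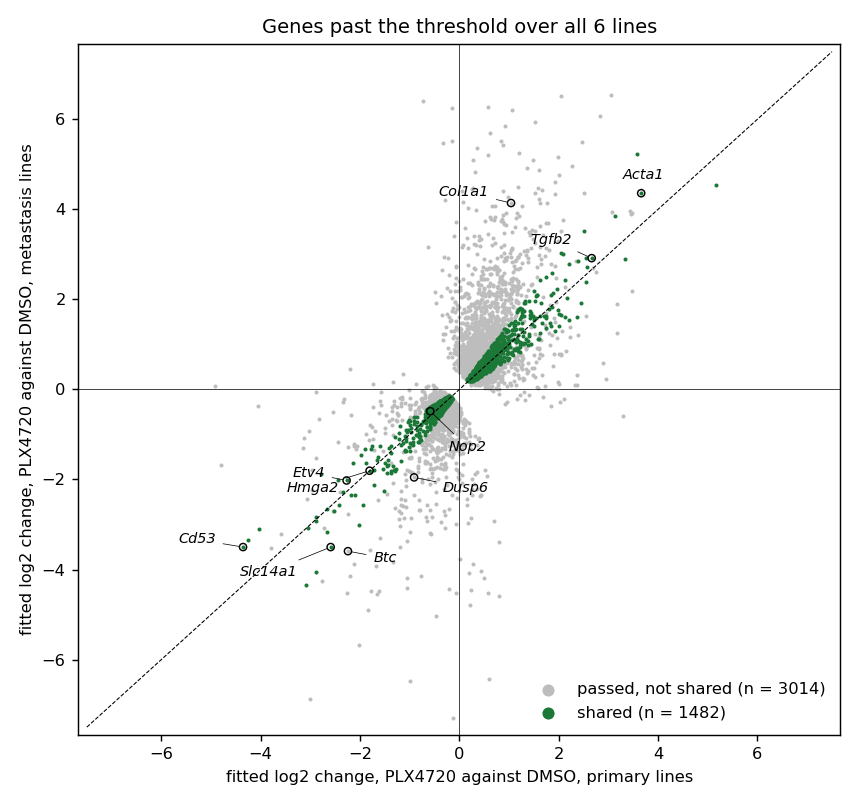
Fitted log2 change with PLX4720 in primary lines (x axis) and metastasis lines (y axis) for the 4496 genes that passed over all 6 lines. Green points are the 1482 shared genes, which lie near the dashed line of equal change by the rule that chose them; grey points are the genes that passed but were not shared, and Dusp6, Btc and Col1a1 are examples with the larger change in metastasis lines.

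Most shared changes were small. The median log2 change of the shared genes was 0.60 among those higher (quartiles 0.38 and 0.95) and -0.34 among those lower (quartiles -0.47 and -0.26), against 0.03 over all genes tested. At least 2-fold changes were found for 139 shared genes higher and 71 lower, and at least 4-fold changes for 22 and 21. Changes per line are on the log2(CPM + 1) scale, which understates changes of genes near or below 1 CPM. M3 had the smallest change of the 6 lines for 575 of the 1482 shared genes, while M1, T1 and M2 had the largest for 390, 368 and 350. The median change per line in log2(CPM + 1) ran from 0.33 in M3 to 0.53 in M1 among shared genes higher, and from -0.20 in M3 to -0.42 in T1 among those lower. Without T1 there were 793 shared genes (360 higher, 433 lower) and without M2 983, of which 611 and 791 are among the 1482. The shared genes lower numbered 503 without M2 and 579 without T3.

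Level, length and biotype of the shared genes are given beside those of all genes tested, and the p-value that chose them depends on level. Shared genes lower with PLX4720 had higher read counts, with a median mean log2 CPM of 6.14, than shared genes higher (4.14) or all genes tested (4.04). The part of expression level in which small changes passed was not tested. The median summed exon length was 3204 bases for shared genes lower, 4221 bases for those higher and 3455 bases for all genes. Protein-coding genes made up 93.6% and 92.6% of shared genes lower and higher, and 81.7% of all genes tested.

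Promoter sequences were searched for motifs of factors that ERK, YAP, SRF and growth signals act through. RefSeq promoters of the GRCm38.p6 build matched 11213 of the genes tested, with 813 promoters of 660 shared genes lower and 609 promoters of 458 shared genes higher. Within 250 bases before the start and on both strands, the ETS core CCGGAAG stood in 19.9% of promoters of shared genes lower, 7.39% of those of shared genes higher and 12.4% of all 14311. The E-box CACGTG stood in 10.1%, 6.73% and 7.93%, in the same order. The CRE letters TGACGTCA stood in 2.83%, 3.61% and 2.48%, and the TEAD letters GGAATG in 9.1%, 11.2% and 11%. The CArG box, the site of SRF, stood in 0.738%, 1.31% and 1.23%, the AP-1 letters TGANTCA in 4.55%, 4.11% and 5.1%, and the FOXO letters TGTTTAC in 2.09%, 1.48% and 2.38%. Median GC content was 60% in shared genes lower and 59.6% in both other sets. These matches are descriptions of letters. Up to 150 bases before the RefSeq start are shown for 5 shared genes that the results turn on, 5′ to 3′ on the strand of the gene, with matched motifs in capitals and without bases inside the gene as annotated for the counts. They are a TGF-β ligand (E-box), a contractile gene (CArG box, then TEAD letters on the opposite strand), a phosphatase that rose (CRE, then E-box), a phosphatase that fell (2 adjoining CArG boxes) and a ribosome biogenesis gene (E-box, then ETS core). Each of the 5 holds a searched motif, whereas promoters of other named shared genes, such as Hmga2, Mmp11 and Tapbp, held none.
Tgfb2, chr1:186705990-186706139, minus strand: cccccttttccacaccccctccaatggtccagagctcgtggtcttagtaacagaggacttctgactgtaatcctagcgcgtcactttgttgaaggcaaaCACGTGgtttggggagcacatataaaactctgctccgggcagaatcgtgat
Acta1, chr8:123894776-123894925, minus strand: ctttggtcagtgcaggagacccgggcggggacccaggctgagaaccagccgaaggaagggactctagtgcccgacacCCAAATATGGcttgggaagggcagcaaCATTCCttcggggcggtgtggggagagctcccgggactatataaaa
Dusp1, chr17:26508520-26508622, minus strand: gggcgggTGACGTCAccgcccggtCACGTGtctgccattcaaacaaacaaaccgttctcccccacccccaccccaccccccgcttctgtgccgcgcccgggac
Dusp5, chr19:53528995-53529108, plus strand: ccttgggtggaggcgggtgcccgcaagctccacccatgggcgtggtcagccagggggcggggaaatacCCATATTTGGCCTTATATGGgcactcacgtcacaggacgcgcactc
Nop2, chr6:125131733-125131882, plus strand: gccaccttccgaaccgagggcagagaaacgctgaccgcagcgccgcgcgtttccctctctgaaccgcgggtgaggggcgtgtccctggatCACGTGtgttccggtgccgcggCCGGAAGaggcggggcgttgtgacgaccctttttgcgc

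Several transcripts that report ERK activity fell, among them Etv4, Etv5 and Dusp6, while others rose. Etv4 (chromosome 11, 101769742 to 101785371), an ETS transcription factor induced by ERK, stood at 99.7, 74.9 and 56.3 CPM with DMSO and at 14.3, 16.1 and 16.3 CPM with PLX4720 in T1, T2 and T3. It stood in M1, M2 and M3 at 144, 129 and 110 CPM with DMSO and at 55.1, 24.9 and 22.2 CPM with PLX4720. Every PLX4720 library lay below every DMSO library, with M1 at 55.1 CPM just under T3 at 56.3 CPM. The fitted log2 change was -2.15 ± 0.16 (SE; edgeR adjusted p = 0.000124), with -2.27 in primary and -2.02 in metastasis lines and a difference of 0.25 (95% interval -0.46 to 0.96).

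Etv5 (chromosome 16, 22381309 to 22439719), a close relative of Etv4, ran from 35.9 to 105 CPM with DMSO (median 60.8) and from 4.55 to 33.1 CPM with PLX4720 (median 20.7). The 2 groups of libraries did not overlap, and the fitted log2 change was -1.89 ± 0.23 (SE; edgeR adjusted p = 0.000793). M1 gave the smallest fall of both genes, 1.37 for Etv4 and 0.69 for Etv5 on the log2(CPM + 1) scale. For each list of genes from here on, the shares among all genes tested are 14.5% higher, 12.7% lower and 8.95% shared. Of 20 ERK-induced transcription factors tested 5 rose and 6 fell, with a median log2 change of 0.02 against 0.03 over all genes. Without T2 or T3, 3 rose. Shared members were Etv4, Etv5, Fosl1 and Maff on the lower side and Egr1 and Fosl2 on the higher side. Fosl2, an AP-1 subunit, ran from 42.5 to 142 CPM with DMSO (median 94.4) and from 109 to 279 CPM with PLX4720 (median 170), overlapping groups with a fitted log2 change of 0.99 ± 0.13 (edgeR adjusted p = 0.00142). Myc, a growth transcription factor that ERK stabilises, did not pass (log2 change 0.02 ± 0.17, edgeR adjusted p = 0.96), and it went down in T1, T2 and M2 (T2 -0.55) and up in T3, M1 and M3 (M1 0.90).

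Among genes listed as feedback inhibitors of ERK, more fell than rose. Of 16 tested 9 fell and 4 rose, with a median log2 change of -0.69. Dusp6 (chromosome 10, 99263231 to 99267488), the ERK-specific phosphatase, stood at 347, 273 and 285 CPM with DMSO and at 147, 150 and 183 CPM with PLX4720 in T1, T2 and T3. In the metastasis lines it went from 167, 194 and 185 CPM to 70.9, 39.7 and 36.7 CPM. It fell in 6 of 6 lines, by 0.91 (primary) and 1.95 (metastasis), so it is not among the shared genes (fitted log2 change over all lines -1.43 ± 0.15, edgeR adjusted p = 0.000404). Spry4, a Sprouty inhibitor of RAS signalling, was lower in T1, T2, T3, M2 and M3 but not in M1, where its change was 0.15. Over all lines Spry4 fell by 1.81 (edgeR adjusted p = 0.0148), a call that was lost without M2 (adjusted p = 0.052).

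Dusp5, Dusp1 and Dusp8 were the shared genes of the feedback list, and the 2 that rose, Dusp1 and Dusp8, target stress kinases. Dusp5, a nuclear ERK phosphatase, stood at 39, 29.8 and 162 CPM with DMSO and at 17.1, 10.1 and 93.9 CPM with PLX4720 in T1, T2 and T3. In the metastasis lines Dusp5 went from 41.4, 48.6 and 46.8 CPM to 30.6, 11.2 and 9.97 CPM. T3 had the highest level under both treatments, M1 changed least (-0.43), and the groups overlapped, with a fitted log2 change of -1.38 ± 0.22 (edgeR adjusted p = 0.00323). Dusp1, a nuclear phosphatase that acts mainly on the stress kinases p38 and JNK, moved the other way. It rose from 10.8, 26.9 and 28.3 CPM to 43.5, 54.3 and 67.9 CPM in T1, T2 and T3. In M1, M2 and M3 Dusp1 rose from 6.5, 11.9 and 8.28 CPM to 24.6, 33.2 and 24.8 CPM. Each line rose by at least 0.99 on the log2(CPM + 1) scale, while DMSO levels of T2 and T3 overlapped PLX4720 levels of M1 and M3. The fitted change of Dusp1 was 1.54 ± 0.13 (edgeR adjusted p = 0.000188), 1.42 in primary and 1.66 in metastasis lines. Dusp8, which also targets the stress kinases, rose by 1.03 ± 0.12 (edgeR adjusted p = 0.000754), with 0.28 in M1 and 1.22 in T1 at the ends of its range per line.

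Upstream of ERK, of 18 kinases of the RAS, RAF, MEK and ERK levels tested 2 were higher, 2 lower and none shared. All genes tested had 14.5% higher, 12.7% lower and 8.95% shared. The higher count of the kinases was 1 without T1, T3 or M2 and 0 without T2. Their lower count was 1 without T1, T2 or M2 and 4 without M3. Of 14 EGF ligands and ERBB receptors 3 rose and 5 fell, and Ereg was the shared member. Ereg, which encodes the EGF receptor ligand epiregulin, ran from 0.421 to 144 CPM with DMSO (median 98.9) and from 0 to 65.2 CPM with PLX4720 (median 33.5). T2 had almost no Ereg in either treatment, and the groups overlapped. Its fitted log2 change was -1.50 ± 0.26 (edgeR adjusted p = 0.00441). Among 17 other receptor kinases 6 rose and 1 fell. Fgfr2, a fibroblast growth factor receptor, was the shared member, with a fitted change of 1.56 ± 0.21 (edgeR adjusted p = 0.0014) and changes per line of 0.33 in T2 to 1.87 in M3 on the log2(CPM + 1) scale. In T2 Fgfr2 was at 0.079 CPM with DMSO and 0.354 CPM with PLX4720, where the added 1 compresses the change. Ccnd1, the cyclin D1 gene and a classical ERK target, ran from 837 to 1198 CPM with DMSO and from 382 to 1206 CPM with PLX4720. It passed over all lines (-0.57 ± 0.10, edgeR adjusted p = 0.00425) with -0.23 in primary and -0.92 in metastasis lines, and T3 changed by 0.05.

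Tgfb2 rose by a similar size in each line. Tgfb2 (chromosome 1, 186622792 to 186705989), which encodes the cytokine TGF-β2, stood at 2.65, 2.90 and 2.04 CPM with DMSO and at 18.1, 12.8 and 17.4 CPM with PLX4720 in T1, T2 and T3. Tgfb2 stood in M1, M2 and M3 at 2.87, 2.68 and 2.93 CPM with DMSO and at 24.9, 19.5 and 19.9 CPM with PLX4720. The DMSO libraries lay within a narrow band and the lowest PLX4720 library, T2, was far above the highest of them. The fitted log2 change was 2.79 ± 0.14 (SE; edgeR adjusted p = 2.46e-05), with a difference between sites of 0.25 (95% interval -0.35 to 0.85). Over the alternatives its change ranged from 2.69 to 2.92, with an adjusted p of 0.00037 at most.

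Of 23 TGF-β ligands, receptors and activators tested 13 rose and none fell, with a median log2 change of 0.41, and 3 were shared. Without M1 3 fell. Tgfb3, another ligand of the family, ran from 2.50 to 57.3 CPM with DMSO (median 38.1) and from 4.28 to 123 CPM with PLX4720 (median 98.4). T2 was the lowest library in both treatments and the groups overlapped, while the change was 1.32 ± 0.13 (edgeR adjusted p = 0.00035). Bmpr2, a type II receptor for bone morphogenetic proteins, rose by 0.44 ± 0.07 (edgeR adjusted p = 0.00384). Of 18 SMAD feedback and ID genes 9 rose and 1 fell. Smad7, an inhibitory SMAD that dampens TGF-β signalling, was the shared member, with 0.49 ± 0.08 (edgeR adjusted p = 0.00274) and 0.17 in T3 to 0.66 in T1 and M3.

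**Figure D2:**
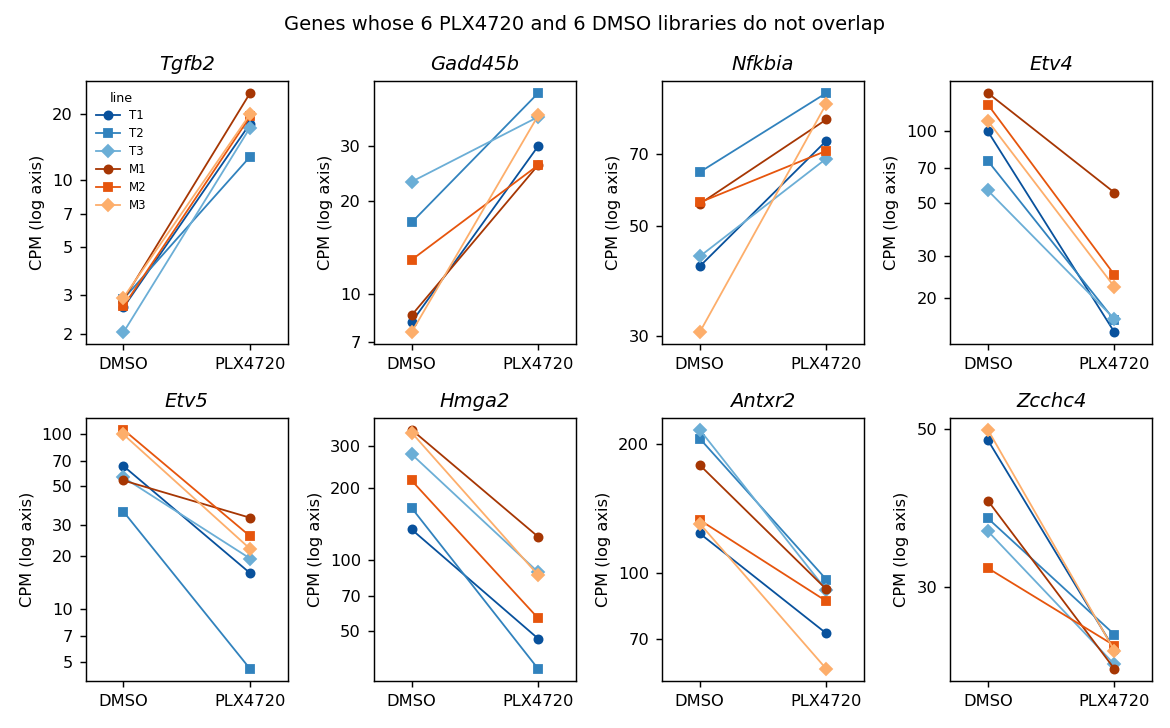
Normalised read count (CPM, log axis, with a separate scale per gene) of 8 shared genes in each line with DMSO and PLX4720, 1 line per cell line, blue for primary and orange for metastasis lines. All 6 PLX4720 values lie above the 6 DMSO values for Tgfb2, Gadd45b and Nfkbia and below them for Etv4, Etv5, Hmga2, Antxr2 and Zcchc4.

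Few genes separated the treatments completely. In 46 of 16555 genes (0.278%) the 6 PLX4720 and the 6 DMSO libraries did not overlap in CPM, 18 higher and 28 lower, and 26 of these were among the 1482 shared genes (1.75%). Hmga2 (chromosome 10, 120361275 to 120476469), a chromatin protein of fetal and tumour cells that binds AT-rich DNA, stood at 134, 165 and 278 CPM with DMSO and at 46.5, 34.6 and 88.5 CPM with PLX4720 in T1, T2 and T3. In the metastasis lines Hmga2 went from 352, 215 and 342 CPM to 125, 56.6 and 86 CPM. The fitted log2 change of Hmga2 was -1.81 at each site, where likeness of the sites was a condition for shared genes. For Hmga2 the 95% interval of the difference was -0.47 to 0.47 (fitted log2 change over all lines -1.81 ± 0.11, edgeR adjusted p = 4.67e-05). Its relative Hmga1 fell by 1.66 (edgeR adjusted p = 0.000259), with overlapping groups. Fragments of Hmga1 can be divided with near-identical copies, so its level is uncertain. Chosen after their values were seen, Antxr2, an anthrax toxin receptor that binds matrix, ran from 124 to 216 CPM with DMSO and from 59.7 to 96.5 CPM with PLX4720. Zcchc4, which methylates ribosomal RNA, ran from 31.9 to 49.95 CPM and from 23.0 to 25.7 CPM. Other separated shared genes, also picked after their values were seen, were Gpn3, Ints13, Atg101, Rbm19, Kdm8 and Rpl14, with log2 changes of -0.47 to -0.36 for Kdm8, Gpn3, Atg101, Ints13 and Rbm19 and -0.35 for Rpl14.

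The largest shared increases, among named genes above the minimum levels, were led by Acta1 and Tgfb2. Acta1, the skeletal muscle actin gene, ran from 0.0526 to 0.808 CPM with DMSO (median 0.176) and from 0.517 to 12.6 CPM with PLX4720 (median 2.93). T1 was the highest library of each treatment, and its DMSO level exceeded the PLX4720 level of T2. The fitted log2 change was 4.01 ± 0.23 (edgeR adjusted p = 4.01e-05), on 16 fragments over the metastasis DMSO libraries. Next came Nrep (2.73), a neuronal regeneration protein, Atp2b4 (2.55), a plasma membrane calcium pump, Alpl (2.49), tissue-nonspecific alkaline phosphatase, and Robo2 (2.47), a receptor for SLIT guidance proteins. Akr1c14 and Ccn4 followed with 2.10 each, and Dhrs3, which reduces retinal, with 2.03. Akr1c14, an aldo-keto reductase with close relatives in the genome, ran from 7.32 to 35.2 CPM with DMSO and from 33.2 to 137 CPM with PLX4720. Ccn4, a matricellular protein induced by WNT, ran from 3.34 to 59.4 CPM and from 11.8 to 180 CPM. Tmem119 (1.86), Afap1l2 (1.86) and Vnn1 (1.84) completed the set of 12. Over the metastasis DMSO libraries Vnn1 rested on 15 fragments, Alpl on 14 and Atp2b4 on 28. Tmem119 had 10 fragments over the primary DMSO libraries. The direction of Tmem119 in T2 rests on library scaling, since its level there was 0.0263 CPM with DMSO and 0.0272 CPM with PLX4720, and without T3 its call was lost (edgeR adjusted p = 0.0603).

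**Figure D3:**
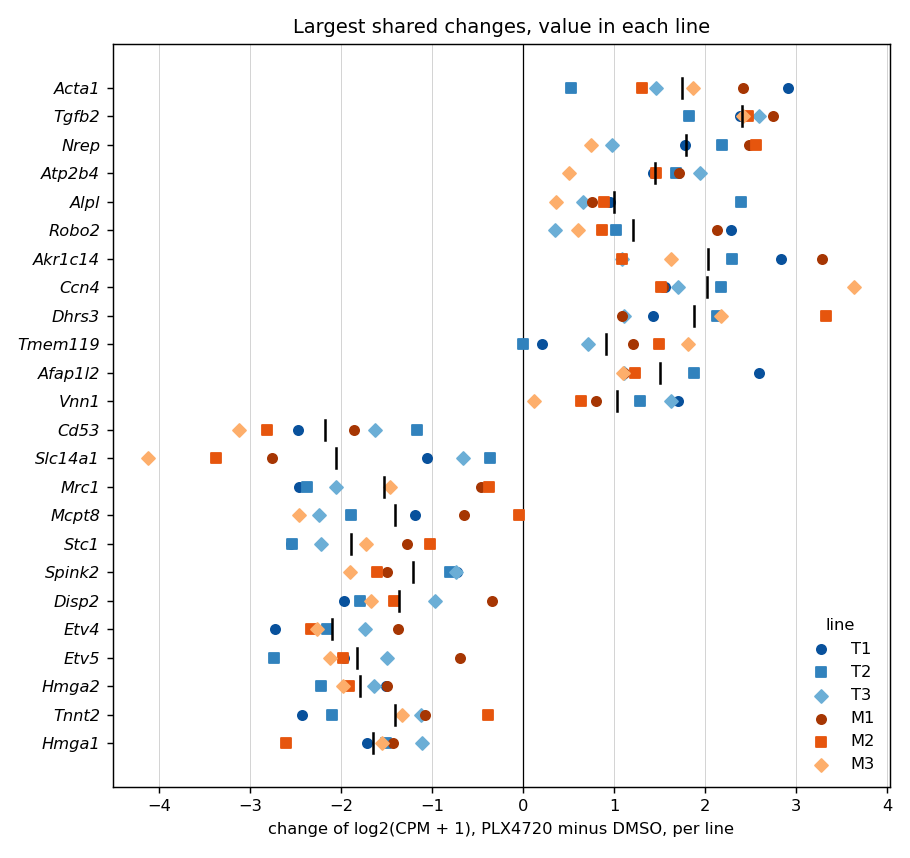
Change of log2(CPM + 1) with PLX4720 in each line for the 12 largest shared increases and 12 largest decreases, ordered by fitted change; coloured symbols are lines, and the black bar is the mean of the 6 lines. All points lie on the same side of 0 for a gene, but lines spread widely for Acta1, Slc14a1 and Mrc1 and little for Tgfb2 and Hmga2.

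The 12 largest shared decreases included Stc1, Hmga2, Hmga1, Etv4 and Etv5. Stc1, a secreted glycoprotein hormone, went from 57.9, 26.4 and 9.9 CPM to 9.04, 3.73 and 1.34 CPM in T1, T2 and T3. In M1, M2 and M3 Stc1 went from 6.45, 2.68 and 7.12 CPM to 2.08, 0.819 and 1.45 CPM. It fell in each line by at least 1.02, with overlapping groups, and the fitted log2 change was -2.33 ± 0.12 (edgeR adjusted p = 2.46e-05). The fall was larger in primary (2.79) than in metastasis lines (1.88), and the difference did not pass (edgeR adjusted p = 0.083). Slc14a1, a urea transporter, fell by 3.05 (edgeR adjusted p = 0.000319), with 121 to 195 CPM in metastasis and 0.289 to 1.95 CPM in primary lines with DMSO. Spink2, a protease inhibitor, and Disp2, of the Dispatched family, fell by 2.26 and 2.25, and Tnnt2, cardiac troponin T, by 1.72.

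Cd53, Mrc1 and Mcpt8, genes known from leukocytes, macrophages and basophils, were also among the 12 largest decreases. Cd53 stood at 5.54, 1.37 and 2.75 CPM with DMSO and at 0.183, 0.0545 and 0.214 CPM with PLX4720 in T1, T2 and T3. Cd53 went in M1, M2 and M3 from 31.4, 6.25 and 13 CPM to 7.91, 0.0303 and 0.611 CPM. M1 kept the most Cd53 with PLX4720, and the fitted log2 change was -3.93 ± 0.49 (edgeR adjusted p = 0.000947). Mrc1, a mannose receptor, ran from 8.41 to 39.7 CPM in primary and 0.297 to 2.15 CPM in metastasis lines with DMSO. With PLX4720 it ran from 0.706 to 8.82 CPM and from 0 to 0.164 CPM (fitted change -2.92 ± 0.31, edgeR adjusted p = 0.000459). Of the 7 leukocyte markers, which include Cd53, the summed level was 1.76 to 31.7 CPM with DMSO and 0.599 to 8.46 CPM with PLX4720. Cd53 made up most of that sum in M1, with 31.4 of 31.7 CPM with DMSO. The leukocyte gene Coro1a was higher with PLX4720 in T1, T2, M1, M2 and M3 and lower in T3, at 0.0557 to 0.52 CPM, and Lcp1 was higher in T2 and T3 and lower in T1. Ptprc, which defines leukocytes, was at 0 to 0.641 CPM. It was lower with PLX4720 in T1, T2, T3, M2 and M3 and at 0 in M1 under either treatment. Cd48, Cd52 and Laptm5 were at 0 to 0.0802 CPM. Of the 8 macrophage markers, which include Mrc1, Adgre1 and C1qa were at 0 in each of the 12 libraries, and the sum was 15.5 to 99.3 CPM with DMSO and 9.31 to 66.9 CPM with PLX4720. Cd14 was the largest part of that sum in each library, at 5.91 to 55.3 CPM. Its level was higher with PLX4720 in T1 and lower in T2, T3, M1, M2 and M3. Mcpt8, a basophil protease with close relatives, went from 2.40, 7.13 and 15.8 CPM to 0.497, 1.20 and 2.54 CPM in T1, T2 and T3 and from 1.34, 0.0298 and 8.19 CPM to 0.493, 0 and 0.669 CPM in M1, M2 and M3. Its direction in M2 thus rests on very few fragments. The fitted change of Mcpt8 was -2.61 ± 0.27 (edgeR adjusted p = 0.00042). The macrophage receptor gene Csf1r was a shared gene on the higher side. In bulk RNA, fewer cells of a type and less RNA per cell cannot be told apart.

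Most genes of the ribosome biogenesis list fell, with 8 shared genes among them. Of 22 ribosome biogenesis genes tested 17 fell and none rose, against 12.7% lower among all genes, with a median log2 change of -0.39 and a range of -0.55 to -0.22. Without T1 the count was 11, and over the other single omissions and alternatives that keep the line as a block it was 13 to 19. Shared members were Dkc1, Gnl3, Nop2, Npm1, Pes1, Polr1b, Wdr12 and Wdr43. Nop2 (chromosome 6, 125131909 to 125144753), a methyltransferase of ribosomal RNA, stood at 262, 188 and 252 CPM with DMSO and at 150, 138 and 177 CPM with PLX4720 in T1, T2 and T3. In the metastasis lines Nop2 stood at 190, 192 and 266 CPM with DMSO and at 133, 119 and 223 CPM with PLX4720. It fell in every line, least in M3 (0.26), and the groups overlapped through M3 with PLX4720. The fitted log2 change of Nop2 was -0.54 ± 0.08 (edgeR adjusted p = 0.00179). Polr1b, a subunit of RNA polymerase I, ran from 85.2 to 141 CPM with DMSO and from 56.2 to 110 CPM with PLX4720, a change of -0.50 ± 0.07 (edgeR adjusted p = 0.00204). Wdr12, which matures the large ribosomal subunit together with Pes1, fell by 0.49 (edgeR adjusted p = 0.00205). The median change of the 22 genes was -0.72 in T1, -0.42 in T2, -0.31 in T3, -0.29 in M1, -0.57 in M2 and -0.19 in M3. All 22 were lower in T1, T2 and M2, 20 in T3, 17 in M3 and 16 in M1.

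Among genes of nucleotide synthesis and salvage, of 20 tested 14 fell and none rose, with a median log2 change of -0.35, and the count was 12 to 14 with any 1 line left out. The 8 shared members were Gart, Gmps, Impdh2, Nme1, Pfas, Tk1, Uck2 and Umps. Gart, which carries out several steps of purine synthesis, ran from 173 to 411 CPM with DMSO (median 230) and from 123 to 353 CPM with PLX4720 (median 162). M3 was the highest library of each treatment, and the fitted change was -0.46 ± 0.07 (edgeR adjusted p = 0.00174). Impdh2, the enzyme at the branch to guanine nucleotides, changed by -0.41 ± 0.07 (edgeR adjusted p = 0.00345). Tk1, the thymidine kinase of dividing cells, changed by -0.47 ± 0.07 (edgeR adjusted p = 0.00307). Upp1, a uridine phosphorylase that breaks down rather than builds nucleosides, was the outlying member and not shared, with -1.69 in primary and -3.92 in metastasis lines. Median changes per line ran from -0.14 in M3 to -0.49 in T1.

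**Figure D4:**
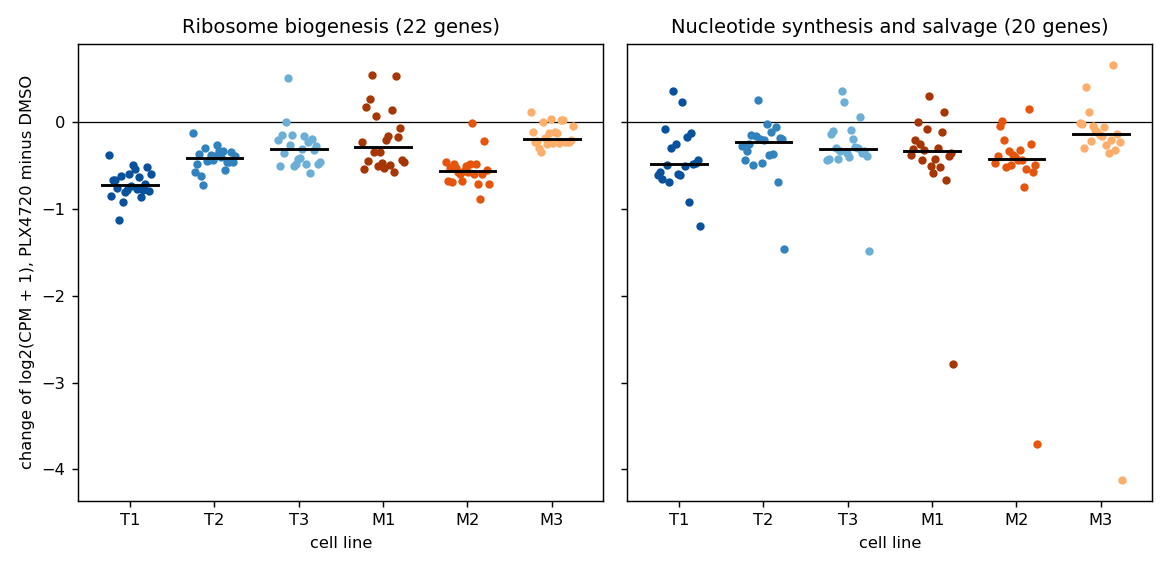
Change of log2(CPM + 1) with PLX4720 in each line for 22 ribosome biogenesis genes (left) and 20 nucleotide synthesis and salvage genes (right); a point is a gene and the black bar the median of the list in that line. The medians are below 0 in 6 of 6 lines for both lists and nearest to 0 in M3; the lowest point in each line on the right is Upp1.

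Cell cycle genes that fell did so by small amounts, and many did not pass. Of 24 genes of S phase and replication 13 fell and none rose, with a median log2 change of -0.24, and without T1 the count was 4. Cdc6, a licensing factor of replication origins, ran from 62.1 to 93.0 CPM with DMSO and from 45.6 to 68.4 CPM with PLX4720, with -0.39 ± 0.07 (edgeR adjusted p = 0.00557). Mcm3, a subunit of the replicative helicase, changed by -0.35 (edgeR adjusted p = 0.0123) and lost its call without T1 or M2. Chaf1a, a histone chaperone, changed by -0.24 (edgeR adjusted p = 0.0306) and lost its call without T1, T2 or M2. Of 24 genes of G2 and mitosis 7 fell and none rose. That count was 1 without T1, 3 without T2 or T3 and 4 without M2. Cdk1, the kinase that starts mitosis, was 237 to 336 CPM with DMSO and 208 to 270 CPM with PLX4720, with -0.33 ± 0.06 (edgeR adjusted p = 0.00483). Of 20 G1 cyclins and CDK inhibitors 5 fell and 2 rose, and without T1 3 fell and 1 rose. Cyclin E1, encoded by Ccne1, fell by 0.54 (edgeR adjusted p = 0.00399) with -0.91 in T1 and -0.21 in M1 at the ends of the range. Ccne2 (-0.39) and Cdk2 (-0.25) passed as well (edgeR adjusted p = 0.0122 and 0.0183), but Ccne2 changed by -0.0004 in M3, and both lost their calls without T1. Cdk2 also lost its call without T3 or M2.

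Of 22 YAP and TEAD targets 14 rose and none fell, with a median log2 change of 0.55, and 4 were shared. Without T1 or M1 1 fell. Gadd45b, a stress gene that activates p38 signalling, stood at 8.13, 17 and 23 CPM with DMSO and at 30, 44.5 and 37.2 CPM with PLX4720 in T1, T2 and T3. In M1, M2 and M3 Gadd45b rose from 8.56, 12.9 and 7.55 CPM to 26.1, 26.1 and 37.7 CPM. The groups did not overlap, and the fitted change was 1.47 ± 0.19 (edgeR adjusted p = 0.00108). Nuak2, a kinase, rose by 1.25 (edgeR adjusted p = 0.00128), Ptpn14, a phosphatase that restrains YAP, by 0.63 (edgeR adjusted p = 0.000884), and Lats2, a kinase that inhibits YAP, by 0.39 (edgeR adjusted p = 0.005). Of 21 contractile genes driven by SRF and its cofactors 19 rose and none fell, with a median of 0.84. Acta1 and Mrtfb were shared, where 3.7% of all genes tested were shared on the higher side. Mrtfb, a cofactor of SRF, ran from 8.83 to 12.9 CPM with DMSO and from 11.2 to 28.1 CPM with PLX4720, with 0.68 ± 0.11 (edgeR adjusted p = 0.00312). The median change per line of the contractile genes was 0.61, 0.08 and 0.41 in T1, T2 and T3 and 1.15, 1.25 and 1.41 in M1, M2 and M3.

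Matrix genes rose in 12 and fell in none of 25 cases, and Sparc was the shared one. Without T3 or M1 1 fell. Sparc, a collagen-binding matricellular protein, ran from 76.5 to 1402 CPM with DMSO and from 158 to 2271 CPM with PLX4720, with 0.78 ± 0.09 (edgeR adjusted p = 0.000784). The median change of the matrix list was 0.04 to 0.28 in primary lines and 1.31 to 1.53 in metastasis lines. Of 21 proteases and inhibitors 8 rose and 5 fell. Mmp11, a secreted metalloprotease, rose from 11.2, 12.7 and 5.06 CPM to 26.7, 24.5 and 9.87 CPM in T1, T2 and T3. Mmp11 rose in M1, M2 and M3 from 16.1, 15.1 and 4.56 CPM to 34, 29.6 and 10.9 CPM. The 6 lines kept their spread of levels while each rose by 0.84 to 1.19 (fitted change 1.07 ± 0.09, edgeR adjusted p = 0.000144). Mmp14, the membrane metalloprotease, rose by 0.62 (edgeR adjusted p = 0.0003), and Plaur, the urokinase receptor, fell by 0.61 (edgeR adjusted p = 0.00403). Of 19 integrin and laminin chains 5 rose and 5 fell, against 14.5% and 12.7% of all genes, and without M3 8 rose. Lamb2, the laminin β2 chain, rose by 0.85 ± 0.07 (edgeR adjusted p = 0.000145), and Itga6 fell. Itga6, the laminin-binding integrin α6 chain, ran from 196 to 839 CPM with DMSO and from 40.1 to 335 CPM with PLX4720. Its fitted change was -1.62 ± 0.15 (edgeR adjusted p = 0.000242), and each line fell by at least 1.06.

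Irs2 rose by a similar size in each line. Irs2 (chromosome 8, 10984681 to 11008458), an adaptor of the insulin receptor that FOXO factors raise, stood at 38.7, 53.3 and 61.4 CPM with DMSO and at 68.6, 92.5 and 126 CPM with PLX4720 in T1, T2 and T3. In the metastasis lines Irs2 rose from 13.8, 19.2 and 14.9 CPM to 25.2, 35.4 and 27.4 CPM. Levels were higher in primary lines under both treatments, and each line rose by 0.78 to 1.02. The fitted change was 0.88 ± 0.06 (edgeR adjusted p = 9.33e-05), with a difference between sites of -0.01 (95% interval -0.29 to 0.27). Of 21 FOXO-linked genes 11 rose and 2 fell. Without T2, M2 or M3 0 fell, and without T1 or T3 1 fell. Fbxo32, a ubiquitin ligase subunit, was the other shared member, with 0.98 ± 0.20 (edgeR adjusted p = 0.00761) and 0.30 in T3 to 1.76 in M1. Of 13 BCL2 family genes 3 rose, against 14.5% of all genes, and none fell. Without T1 or T2 1 rose, and without M1 1 fell. Bid, a BH3-only protein, was the shared member at 0.34 (edgeR adjusted p = 0.0172), with 0.03 in M2 and no call without T1 or T2.

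Of 24 lysosome and autophagy genes 11 rose and none fell, with a median of 0.22 over all lines and of 0.0012 in M3. Without T1, T2 or M2 the counts were 3, 5 and 7. Shared members included Grn, Hexa, Lamp1, Lamp2 and Psap, which encode an enzyme, membrane proteins and other proteins of the lysosome. Grn, the progranulin gene, ran from 72.9 to 254 CPM with DMSO and from 115 to 342 CPM with PLX4720, with 0.63 ± 0.08 (edgeR adjusted p = 0.00127). Lamp2, a lysosomal membrane protein, rose by 0.45 ± 0.07 (edgeR adjusted p = 0.00258). Of 17 genes of fatty acid oxidation and PPAR signalling 11 rose and 1 fell. Without T1, T2, T3, M1 or M2 4, 5, 6, 7 and 6 rose, and 0 fell without T1, T3, M2 or M3. Ppargc1a, a co-activator of mitochondrial genes, ran from 0.029 to 8.87 CPM with DMSO and from 0.0872 to 17.5 CPM with PLX4720, with 0.89 ± 0.15 (edgeR adjusted p = 0.00375). Etfdh, which passes electrons from fatty acid oxidation to the respiratory chain, rose by 0.32 (edgeR adjusted p = 0.00636), and Cpt2, a carnitine transferase, by 0.31 (edgeR adjusted p = 0.018, lost without T1).

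Of 21 glycolysis and hypoxia genes 10 fell and 2 rose, and without M2, T1, T3 or T2 1, 3, 4 and 5 fell. The median change of the list was below 0 in T1, T2, T3, M1 and M2 and 0.09 in M3. Pkm, pyruvate kinase, changed by -0.34 (edgeR adjusted p = 0.00799) from 3315 to 4436 CPM with DMSO to 2575 to 4042 CPM with PLX4720. Pfkfb3, which makes the activator of phosphofructokinase, rose by 0.73 (edgeR adjusted p = 0.00312). Of 20 serine and amino acid genes regulated by ATF4 5 fell and none rose, and without T1, T2 or M2 3 fell. Without M1 1 rose. Slc7a11, the cystine transporter, fell by 0.91 (edgeR adjusted p = 0.0076) with -0.34 in T3 and -1.66 in M1, and Shmt2, a mitochondrial enzyme of serine use, by 0.43 (edgeR adjusted p = 0.00395). The NRF2 and glutathione list, which also holds Slc7a11, had 3 higher and 3 lower of 17, against 14.5% and 12.7% of all genes. Without T2 or M2 1 fell. Me1, malic enzyme, rose by 0.54 (edgeR adjusted p = 0.0011), and the glutathione transferases Gstm1 and Gsta4 by 0.87 and 0.66 (edgeR adjusted p = 0.00163 and 0.00446). The clock genes Nr1d1 and Nr1d2, which encode REV-ERB repressors, fell by 0.46 and 0.38 while Cry2 rose by 0.37 (edgeR adjusted p = 0.0183, 0.00627 and 0.018). The call of Nr1d1 was lost without T1 and that of Cry2 without T1 or T3, with edgeR adjusted p of up to 0.0713 and 0.0734. Of 16 circadian genes 3 rose and 3 fell, against 14.5% and 12.7% of all genes. Without T1 1 rose and 1 fell, and without T3 1 rose.

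Immune genes differed in how evenly they rose. Tapbp, which loads peptides onto MHC class I, stood at 57.6, 71.8 and 42.1 CPM with DMSO and at 127, 126 and 80 CPM with PLX4720 in T1, T2 and T3. In M1, M2 and M3 Tapbp rose from 103, 116 and 152 CPM to 293, 210 and 326 CPM. Each line rose by at least 0.81, and the fitted change was 1.06 ± 0.09 (edgeR adjusted p = 0.000188). Of 14 genes of MHC class I presentation 11 rose and none fell, with Tapbp and Psmb9 shared. Of 20 cytokine and NF-κB genes 13 rose and 2 fell, and 4 were shared. Nfkbia, the inhibitor of NF-κB and its early target, ran from 30.6 to 64.2 CPM with DMSO and from 68.4 to 92.8 CPM with PLX4720 without overlap, a change of 0.74 ± 0.14 (edgeR adjusted p = 0.00563). Csf1, a macrophage growth factor, rose by 0.89 (edgeR adjusted p = 0.00125). The chemokine gene Ccl2 rose by 1.21 (edgeR adjusted p = 0.00872), with 0.13 in M2 and 2.50 in M3. Of 22 interferon response genes 17 rose and none fell, and none was shared, against 3.7% of all genes tested shared higher. Their median change was 0.11 to 0.24 in primary and 1.09 to 1.43 in metastasis lines. Cholesterol synthesis genes, of which 9 of 22 rose, gave no shared gene either, against the same 3.7%. At that share a list of 22 genes can hold none. Of all genes called higher, the base for the 17 and 9 that rose, 25.57% were shared. Without T1, T2, T3, M1 or M3, 2, 3, 3, 5 and 3 of the cholesterol synthesis genes rose. Of 18 Notch and Wnt targets 5 rose and 2 fell, against 14.5% and 12.7% of all genes. None of these targets was shared, and without T1 3 rose.

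**Figure D5:**
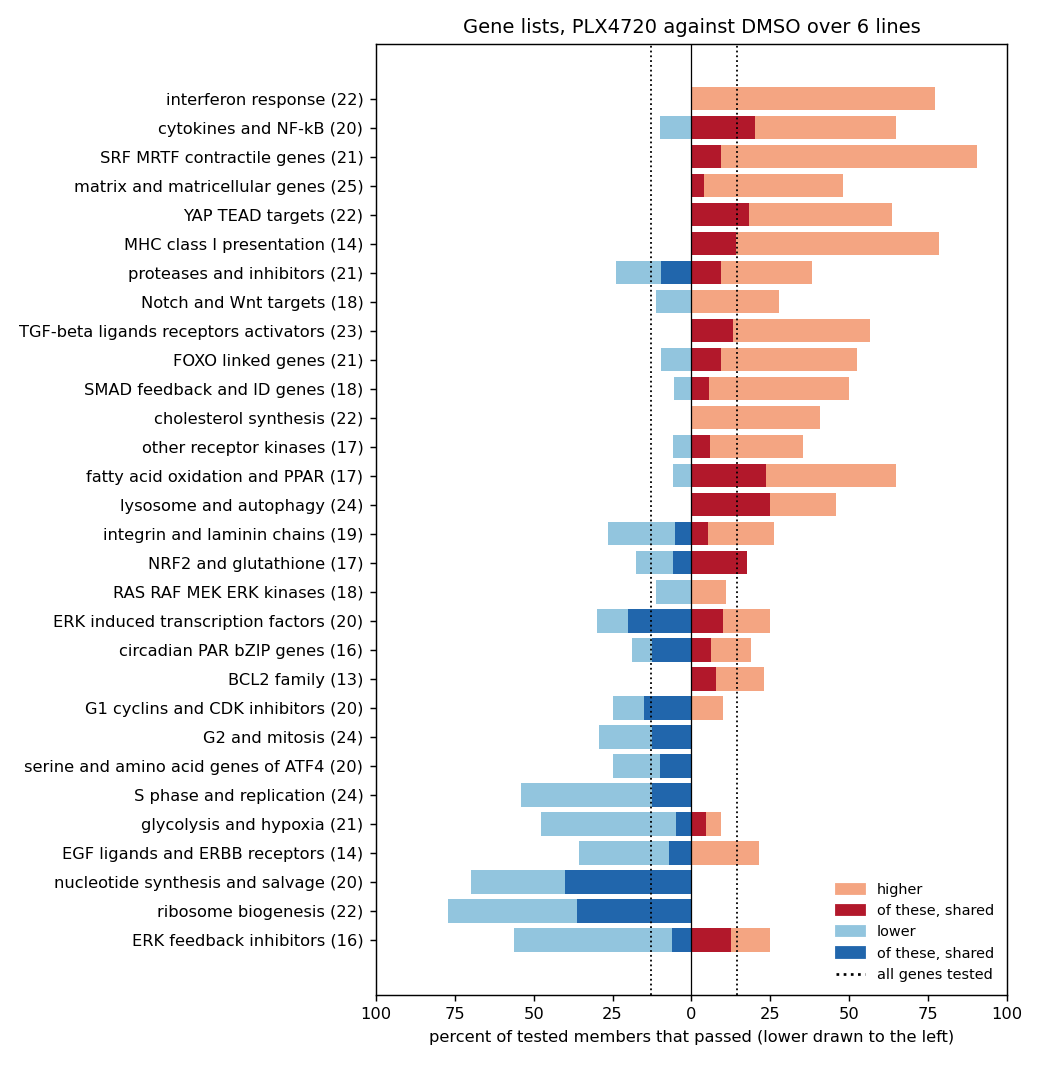
Percent of tested members of each of 30 gene lists that passed over all 6 lines, drawn to the right when higher and to the left when lower, with the shared part in dark colour and the number tested in brackets. Dotted lines mark 14.5% higher and 12.7% lower among all genes. The dark part is large for ribosome biogenesis and nucleotide synthesis. It is absent for interferon response and cholesterol synthesis, among other lists, where 3.7% of all genes were shared higher and 5.26% shared lower.

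The conditions that define a shared gene leave others close by. At the size condition, Wdr92 and Fastkd3 were just inside, Wdr92 with -0.37 (primary) and -0.25 (metastasis) and Fastkd3 with -0.39 and -0.26. Kcnn4, a potassium channel gene with -1.01 and -1.52, and Mrpl15, with -0.25 and -0.16, were just outside. At the threshold of the mean change, Hint1 and Elac2 were just inside (edgeR adjusted p = 0.0499 and 0.0497) and Haus2 and Orc4 just outside (0.0501 and 0.0502), with log2 changes of -0.18, -0.23, -0.22 and -0.19. Kcnn4 fell from 125, 79.5 and 169 CPM to 59.2, 37 and 93.5 CPM in T1, T2 and T3. Kcnn4 fell in M1, M2 and M3 from 185, 100.4 and 201.5 CPM to 73.9, 28.7 and 74.3 CPM. Kcnn4 was lower in 6 of 6 lines, by 0.85 in T3 to 1.77 in M2.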

How the data were processed

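Total RNA of 6 mouse liver cancer lines, each with DMSO and PLX4720, was sequenced after depletion of ribosomal RNA with a stranded kit, per the labels' protocols. The authors deposited 1 table of raw counts of fragments per gene for each library, made with featureCounts 1.5.2 from read pairs with both ends mapped, over exons of Ensembl 84 (GRCm38), per the file headers. No strand option is recorded there, so fragments of overlapping antisense genes cannot be told apart, and genes with near-identical copies are uncertain. For the aligner, the name is not given in these sources.

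Genes were filtered with filterByExpr, scaled by TMM and tested with edgeR 4.0.16 (R 4.3.3) by the quasi-likelihood test, in a model of line effects plus treatment effects by site (4 residual degrees of freedom). The mean of both terms, each term and their difference were tested, and p-values were adjusted over all 16555 genes by Benjamini-Hochberg at 0.05. The block comes from the cell line in the labels, and deviations of the 2 libraries of a line from their group means correlated at 0.839 to 0.923. CPM were scaled by the TMM factors, and the change in a line is the log2(CPM + 1) with PLX4720 less that with DMSO. The script was tested on simulated data. Alternatives were DESeq2 1.42.0, RLE scaling, 2 other filters, 1 treatment term, no block and left-out lines.

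The members and the gene lists were chosen with earlier results of these data known. Named genes are 7 fixed genes, the 12 largest shared changes in each direction with a given name, mean log2 CPM of at least 1 and at least 10 fragments in each of the 4 groups, up to 3 shared genes per list with the smallest p, and the 2 nearest genes on either side of each threshold. Other names were chosen after their values were seen. The result for 1 list member is not reported here.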

Additional observations from a re-analysis of the deposited data

Results flagged for a closer look

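Changes per line were checked for 1 line standing far from the other 5 in 93 named genes, and 4 had such a line. Changes are on the log2(CPM + 1) scale, which compresses those of genes below 1 CPM. Chance gives about 1 in 20. The change of Atp2b4 was 0.51 in M3, the smallest on that scale, at 0.174 CPM with DMSO and 0.669 CPM with PLX4720. The change of Alpl was 2.39 in T2, the largest on that scale. There Alpl went from 2.55 to 17.65 CPM, and in M1, where the ratio was larger, from 0.0298 to 0.739 CPM. The change of Ccn4 was 3.64 in M3, where the other lines lay between 1.52 and 2.18. The change of Irs2 was 1.02 in T3, where the other lines lay between 0.78 and 0.85. The mitochondrial share of fragments was 3.67% in T3 with PLX4720. Under the same treatment the lines other than T3 had 0.455% to 0.712%. Its part in the results of T3 was not tested, and without T3 there were 1110 shared genes.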

How the results depend on the processing

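The main counts were 4496 genes for PLX4720, 1482 shared genes and 487 genes for the difference between sites. The difference between sites gave 920 genes with DESeq2 and 996 without a filter on low counts. Without the block for the cell line, which sets aside the pairing of libraries, the 3 counts were 18, 3 and 0 (edgeR; 1516 and 279 genes at an unadjusted p under 0.05 for PLX4720 and the site difference). With any 1 line left out they ranged from 2417 (without T1) to 4384 (without M3), from 793 (T1) to 1540 (M3) and from 122 (T2) to 798 (M1). A size condition of 1/2 gave 2251 shared genes and one of 4/5 gave 833. Without M2 and M3 there were 1000, of which 373 higher and 627 lower. The 1482 shared genes had 1331 in common with those of DESeq2, 1373 with RLE scaling, 1294 without the filter, and between 611 (without T1) and 970 (without M3) with a line left out. The log2 change of Myc, which did not pass, turned to -0.13 without T3 and -0.14 without M1, and its range over left-out lines was -0.14 to 0.17. Under DESeq2 6 circadian genes and 8 integrin and laminin genes rose. The cause of these moves was not tested, apart from the fewer samples of the omissions. Lines number 3 per site, each with 1 library per treatment, so changes within a line have no replicate of their own.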

Other observations

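Families defined by the stem of the gene symbol, chosen after the data were seen and described by counts alone, held shared genes on the lower side, where 12.7% of all genes tested fell and 5.26% were shared. Of 56 histone genes tested 48 fell and none rose, 24 of them shared, with a median log2 change of -0.45 against 0.03 over all genes. Their sequences are near-identical, so single histone genes are uncertain. Of 10 Utp genes, which encode parts of the complex that processes ribosomal RNA of the small subunit, 7 fell and 6 were shared. Of 81 genes with the stem of large-subunit ribosomal proteins, a count that includes pseudogenes, 43 fell, 20 of them shared (24.7%). Of 77 with the small-subunit stem 32 fell, 8 of them shared (10.4%). Of 49 genes of the large mitochondrial ribosomal subunit 22 fell and 13 were shared. Among 28 genes with the stem Polr, which encode RNA polymerase subunits, 16 fell and 10 were shared. Of 13 Snhg genes, hosts of small nucleolar RNAs, 7 fell and all 7 were shared. Fewer did so in other nucleolar stems. Of 10 Nol genes 3 fell and 1 was shared. Of 17 Snora and 43 Snord genes 6 and 3 fell, with 1 and 2 shared. Of 57 genes with the stem Eif, that of translation initiation factors, 24 fell and 4 rose, with 12 and 1 shared. A stem takes in every named gene whose symbol has those letters before its first digit, whatever its function.

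On the higher side, where 14.5% of all genes tested rose and 3.7% were shared, 5 of 12 Wnt ligand genes rose and 4 were shared, while 2 fell. Of 10 Ccl chemokine genes 4 rose and 3 were shared, with a median log2 change of 0.59. Among 36 collagen genes 13 rose and none was shared.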
